A study of Arabidopsis thaliana with 12 samples.

Results

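How the response to shade depended on genotype was measured in seedlings of Arabidopsis thaliana over all 12 of 12 RNA sequencing libraries of the study, 3 biological replicates in each of 4 groups. The quantity is the interaction, the shade effect in the line bbx28-5 minus the shade effect in the accession Col-0, each effect being simulated shade (SS) against white light (WL). Per the labels, whole seedlings of Col-0 or of bbx28-5, in the Columbia background, grew for 2 days on water and agar, with 10 h of light and 14 h of darkness a day. They then spent 4 h in white light, with a photosynthetically active radiation of 90 µmol per square metre per second and a red to far-red ratio of 1.1, or in simulated shade under a green filter, with 20 µmol per square metre per second and a ratio of 0.1455. Blue light was 8.1 µmol per square metre per second in white light and 1.3 in simulated shade. What lesion bbx28-5 carries, and whether other lines were tested, the sources used here do not state. Because the RNA came in bulk from whole seedlings, fewer cells of a type and less RNA per cell cannot be told apart.

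BBX28 is a B-box zinc finger protein that, as background, acts in Arabidopsis light signalling by binding transcription factors such as HY5. Plants sense shade through phytochromes, photoreceptors that far-red light switches off. Phytochrome-interacting factors (PIFs) then accumulate and activate auxin synthesis, cell elongation and a set of negative regulators that limit the response. The treatment used here lowered total light and blue light as well as the red to far-red ratio. Genes of photosynthesis and carbon supply are known to respond to total light too.

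BBX28 itself (AT4G27310) measured 72.4, 74.2 and 64.1 CPM in Col-0 in white light, 108, 115 and 104 in Col-0 in shade, 108, 104 and 99.8 in bbx28-5 in white light, and 160, 209.8 and 144 in bbx28-5 in shade. Within each light every bbx28-5 library was above every Col-0 library, and while the lesion is unknown the transcript does not test the genotype label. Its shade effect did not pass the test for a difference, with an interaction of 0.08 ± 0.174 log2 units (SE, adjusted p = 0.798, edgeR quasi-likelihood test with Benjamini-Hochberg adjustment over all genes, threshold 0.05). Throughout, bbx28-5 stands for the libraries labelled so.

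The libraries held 10.61 to 14.3 M counts each (M, mega), and levels are counts per M (CPM) after TMM scaling, the trimmed mean method of edgeR, so that 3 counts correspond to 0.2 to 0.346 CPM. Replicate 2 of bbx28-5 in shade stood apart, with 2151 genes at least 2-fold from the mean of its group mates, against 129 to 742 genes in the other 11 libraries. The TMM factors were 0.7901 to 0.8668 in bbx28-5 in shade and 1.014 to 1.085 in the other 9 libraries, and scaling by total counts moved the interaction by -0.29 log2 units. The direction of a change of that size is therefore relative to TMM.

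The most frequent class was a shade effect of larger size in bbx28-5, mostly with estimates of the same sign in both genotypes. Of 19711 genes tested, 2025 were called for the interaction (10.3%), of which 1279 were positive (6.49%) and 746 negative (3.78%), and 675 were at least 2-fold (3.42%). Sorted by the effects in each genotype, 1058 genes had a larger rise in bbx28-5 (5.37%), 677 a larger fall (3.43%), 52 a smaller rise (0.264%) and 182 a smaller fall (0.923%). Opposite responses, with both shade effects called, were found in 56 genes, 39 that rose in bbx28-5 and fell in Col-0 (0.198%) and 17 with the reverse (0.0862%). Shade effects as such were called in 59.5% of genes in Col-0 and 67.5% in bbx28-5. Where only 1 of the 2 shade effects was called, larger and smaller followed the size of the estimates, so that 239 of the larger rises and 166 of the larger falls were called for shade in bbx28-5 alone. The Col-0 estimate had the same sign in 954 of the 1058 larger rises and 620 of the 677 larger falls, and the opposite sign in the other 104 and 57. Under total counts the split was 482 positive (15.33%) against 2663 negative of 3145 called, where TMM gave 63.16% positive.

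The classes differed in how far the genotypes parted. In the larger rises the median shade effect was 0.81 log2 units in Col-0 and 1.63 in bbx28-5, and in the larger falls -0.83 and -1.92. The smaller rises had medians of 1.19 and 0.08, and the smaller falls of -1.20 and -0.29. The shade effect was called in Col-0 alone for 31 of the 52 smaller rises and 90 of the 182 smaller falls, and in both genotypes for the others. Opposite rises had medians of -0.48 and 0.46 and opposite falls of 0.34 and -0.43, both small on either side of 0. A genotype difference was called in shade and not in white light for 1605 of the 2025 genes (79.26%). It was called in white light alone for 131, in both for 238 and in neither for 51. Over all tested genes it was called for 9.89% in white light and 35.3% in shade, and a difference not called may still be present. Leaving out each library in turn kept 911 of the 2025 calls, 584 positive and 327 negative. Without replicate 1, 2 or 3 of bbx28-5 in shade 2735, 4618 and 2643 genes were called, and without any 1 of the other 9 libraries 1121 to 1385. Counts of list members moved with the libraries too, and ranges given beside them are over the 12 libraries left out 1 at a time. Each such count is to be read beside the shares over all genes, 6.49% positive, 3.78% negative and 10.3% called.

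**Figure D1:**
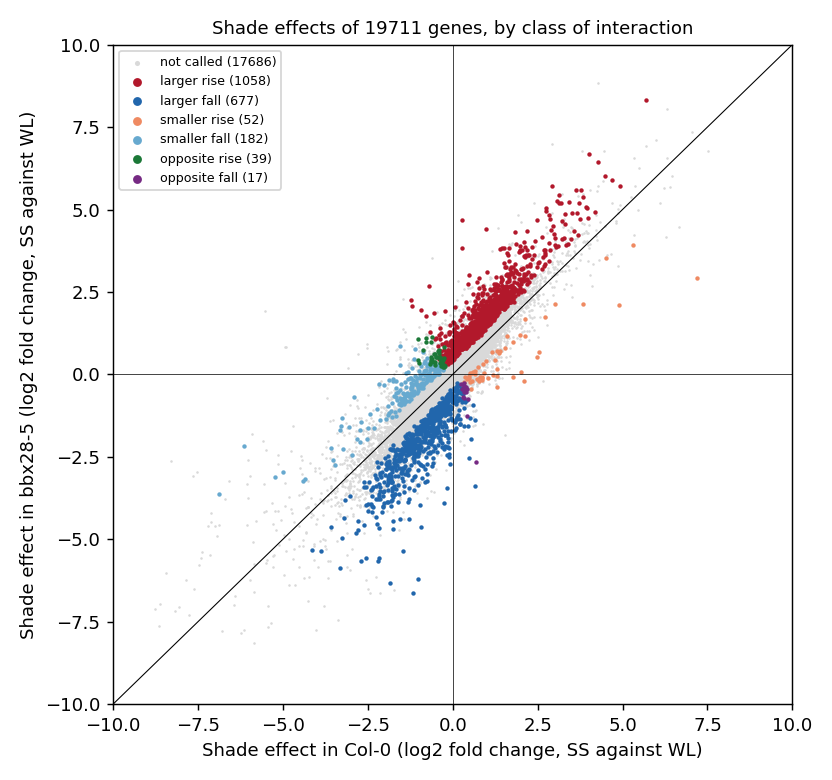
Each point is 1 of 19711 genes, with the log2 shade effect in Col-0 on the x axis and in bbx28-5 on the y axis, coloured by class. The diagonal marks equal effects. The 1058 larger rises lie above it, 954 at the upper right and 104 at the upper left, and the 677 larger falls below it, 620 at the lower left and 57 at the lower right, while the 56 genes with opposite responses lie at the upper left and the lower right.

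Among all 1955 genes that rose at least 2-fold in Col-0 the median effect was 1.41 in Col-0 and 1.84 in bbx28-5, and 1497 (76.57%) had the larger estimate in bbx28-5. For the 2772 genes that fell at least 2-fold the medians were -1.52 and -1.83, and 1691 (61%) had the larger fall in bbx28-5. Both sets were picked on the Col-0 estimates, so the shares carry no test. With total counts the shares were 56.08% of rises and 76.43% of falls, which reverses which side was the more uneven.

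Among 46 gene lists, chosen with earlier results of these data known, heat-responsive chaperones and their regulators had the highest share of positive calls. Such chaperones hold or refold damaged proteins, and their genes are switched on by heat shock factors. Of 14 tested small heat shock protein genes 8 were positive and none negative, with a median interaction of 1.71 log2 units against 0.05 over all genes, and of 16 heat shock factors and large chaperones 10 were positive and none negative, with a median of 0.96. The median shade effect of the small heat shock list was 3.04 in Col-0 and 4.96 in bbx28-5.

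The promoters of 2 of the named small heat shock genes hold the palindromic core of the heat shock element, GAANNTTC or TTCNNGAA, within the 250 bases before the annotated transcript start, and they are printed to show where it lies, in capitals. They come from the RefSeq genome TAIR10.1, 5′ to 3′ on the strand of the gene. The HSP21 window is chr4:13819972-13820221 on the minus strand and that of AT5G51440 is chr5:20890913-20891162 on the plus strand.
HSP21: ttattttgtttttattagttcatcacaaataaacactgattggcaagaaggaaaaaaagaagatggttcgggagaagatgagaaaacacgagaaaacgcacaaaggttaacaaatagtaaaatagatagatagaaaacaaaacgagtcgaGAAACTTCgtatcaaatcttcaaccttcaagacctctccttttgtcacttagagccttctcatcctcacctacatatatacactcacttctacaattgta
AT5G51440: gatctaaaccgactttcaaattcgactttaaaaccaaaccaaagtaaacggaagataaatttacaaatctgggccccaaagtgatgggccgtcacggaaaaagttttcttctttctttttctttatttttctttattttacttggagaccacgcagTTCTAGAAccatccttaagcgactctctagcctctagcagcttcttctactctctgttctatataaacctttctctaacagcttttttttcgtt
This core was found in 7 of 14 promoters of the small heat shock list (50%), in 31.2% of the large chaperone list and in 15.6% of all 19620 promoters of tested genes, counting matches on both strands. Larger rises as a class held it in 17.2% and larger falls in 16.8%, close to the share of all promoters. None of the windows of AT2G29500, AT1G07400, HSP70, HSFB2A, HOP3 and MBF1C holds these letters, which says nothing about binding elsewhere.

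HSP70 (AT3G12580), a cytosolic chaperone, measured 118, 138 and 143 CPM in Col-0 in white light, 603, 615 and 542 in Col-0 in shade, 94.2, 106 and 119 in bbx28-5 in white light, and 1707, 1172 and 1795 in bbx28-5 in shade. The shade libraries of both genotypes lay above all white light libraries, and those of bbx28-5 lay above those of Col-0. Its shade effect was 2.14 ± 0.153 in Col-0 and 3.87 ± 0.164 in bbx28-5, an interaction of 1.73 ± 0.209 (SE, adjusted p = 0.00041, edgeR). HOP3 (AT4G12400), a co-chaperone that links HSP70 and HSP90, measured 39.2, 49.9 and 45.7 CPM in Col-0 in white light, 280.1, 251 and 228 in Col-0 in shade, 32, 30.4 and 32.3 in bbx28-5 in white light, and 671, 813 and 949 in bbx28-5 in shade. Its groups did not overlap in shade, and the interaction was 2.19 ± 0.186 (adjusted p = 4.22e-05, edgeR). AT2G29500, annotated as an HSP20-like chaperone, measured 18.4, 21.1 and 23.8 CPM in Col-0 in white light, 225, 154 and 174 in Col-0 in shade, 12.3, 12.2 and 14 in bbx28-5 in white light, and 431, 462 and 773 in bbx28-5 in shade, with an interaction of 2.31 ± 0.297. In white light it was lower in each bbx28-5 library than in any Col-0 library, and in shade it was higher in each.

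HSP21, a small heat shock protein of the chloroplast, measured 0.337, 0.768 and 0.466 CPM in Col-0 in white light, 1.73, 0.398 and 0.855 in Col-0 in shade, 0.749, 0.909 and 1.89 in bbx28-5 in white light, and 22.6, 23.8 and 27.2 in bbx28-5 in shade. In Col-0 it stayed under every bbx28-5 shade value, and its shade effect there did not pass (adjusted p = 0.119, edgeR), so that the rise in bbx28-5, by 4.41 log2 units, was called in that genotype alone. The interaction was 3.42 ± 0.69 (adjusted p = 0.00785, edgeR), and its adjusted p was 0.05003 without replicate 2 of Col-0 in white light. The transcriptional coactivator gene MBF1C had an interaction of 1.54 ± 0.246, the repressor-type heat shock factor gene HSFB2A of 1.16 ± 0.16, AT5G51440 of 1.62 ± 0.24 and AT1G07400 of 1.54 ± 0.314, the last 2 annotated as HSP20-like chaperones. Leaving out 1 library at a time left 4 to 10 members of the small heat shock list positive, fewest without replicate 3 of Col-0 in white light and most without replicate 1 of Col-0 in shade, and 9 to 15 of the large chaperone list, most without replicate 2 of bbx28-5 in shade. With total counts 7 and 6 members were positive.

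Of 16 tested genes of touch and rapid stress responses 7 were larger rises in bbx28-5 (43.75%, beside 5.37% of all genes). The other 9 were not called, and the median interaction of the list was 0.76. TCH3 (AT2G41100), a calmodulin-like calcium sensor induced by touch, measured 24.4, 20.6 and 26 CPM in Col-0 in white light, 89, 98.9 and 91.8 in Col-0 in shade, 14.4, 12.9 and 15.2 in bbx28-5 in white light, and 221, 197 and 218 in bbx28-5 in shade. Each bbx28-5 library was below every Col-0 library in white light and above every one in shade. Its shade effect was 1.98 ± 0.108 in Col-0 and 3.90 ± 0.117 in bbx28-5, an interaction of 1.93 ± 0.152 (adjusted p = 3.15e-05, edgeR), and 1.85 to 2.01 with 1 library left out. The transcription factor gene WRKY40 had an interaction of 2.14 ± 0.316 and the zinc finger gene SZF1 of 1.19 ± 0.183. From 3 to 8 members were positive with 1 library left out, 3 without replicate 3 of either genotype in white light, 4 without any library of Col-0 in shade, replicate 2 of Col-0 in white light or replicate 1 of bbx28-5 in white light, and 3 with total counts. Among 19 genes of abscisic acid, cold and drought 2 were positive (10.53%, beside 6.49% of all genes). These were the dehydrin genes ERD10 at 1.29 ± 0.154 and COR47 at 0.91 ± 0.158, whose proteins protect cells under water loss.

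Aquaporins, channels that carry water across membranes, had 6 positive and 1 negative of 19 (36.84% called, beside 10.3% of all genes). Their median was 0.44. PIP2;3 (AT2G37180), a channel of the plasma membrane, measured 59.1, 59.3 and 48.7 CPM in Col-0 in white light, 188, 177 and 183 in Col-0 in shade, 62.6, 63.7 and 60.8 in bbx28-5 in white light, and 515, 721 and 563 in bbx28-5 in shade. In white light the bbx28-5 libraries lay just above those of Col-0, and in shade far above. The shade effect was 1.71 ± 0.124 in Col-0 and 3.27 ± 0.13 in bbx28-5 (interaction 1.55 ± 0.171, adjusted p = 0.00023, edgeR). PIP2;2 at 1.10 ± 0.183, PIP2;7 at 0.91 ± 0.148 and PIP1;3 at 0.75 ± 0.128 were larger rises too. PIP2;2 and PIP2;3 are close paralogs, and the sources used here do not say how reads shared by them were counted. Without replicate 2 of bbx28-5 in shade 13 members were positive, 9 without replicate 1 or 3 of that group, and as few as 4 without another library.

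Iron storage and autophagy genes were among the larger rises. FER1 (AT5G01600), a plastid ferritin that stores iron, measured 72.5, 75.2 and 96.1 CPM in Col-0 in white light, 386, 355 and 352 in Col-0 in shade, 135, 144 and 144 in bbx28-5 in white light, and 1667, 1887 and 1660 in bbx28-5 in shade. All 4 groups were separate from each other, and bbx28-5 was higher in both lights. Its interaction was 1.46 ± 0.156 (adjusted p = 0.000175, edgeR), with 0.79 ± 0.111 between genotypes in white light and 2.25 ± 0.114 in shade. FER4 had an interaction of 0.79 ± 0.171. FER3 (AT3G56090) took another course, with 32.1, 29.2 and 34 CPM in Col-0 in white light, 14.4, 14.9 and 15.2 in Col-0 in shade, 39.7, 43.5 and 45.5 in bbx28-5 in white light, and 40.4, 43.2 and 41.2 in bbx28-5 in shade. Every Col-0 shade library was below every Col-0 white light library, while the bbx28-5 values of both lights overlapped, with an estimate of -0.05 (adjusted p = 0.677, edgeR). The interaction of this smaller fall was 1.05 ± 0.133. Of 21 iron genes 5 were positive (23.81%, beside 6.49% of all genes) and none negative. With 1 library left out 3 to 7 iron genes were positive. Of 9 ATG8 genes, whose proteins coat autophagosomes, 5 were positive (55.56%, beside 6.49% of all genes) and none negative. Their median was 0.80, and ATG8H had 1.35 ± 0.276. From 1 to 7 ATG8 genes were positive with 1 library left out, 1 without replicate 3 of Col-0 in shade, and 1 with total counts.

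In the shade pathway itself 3 of 12 marker genes were larger rises (25%, where 6.49% of all genes were positive) and 9 were not called, with a median of 0.52. Without replicate 2 of bbx28-5 in shade 5 were positive, and without another library 3 or 4. PAR1 (AT2G42870), an atypical bHLH protein that restrains elongation, measured 8.3, 11.1 and 8.12 CPM in Col-0 in white light, 110.4, 122 and 117 in Col-0 in shade, 4.76, 4.24 and 4.39 in bbx28-5 in white light, and 111, 184 and 109.6 in bbx28-5 in shade. It was lower in bbx28-5 in white light in every library, and in shade the genotypes overlapped, with replicate 2 of bbx28-5 the highest. The interaction was 1.24 ± 0.28 (adjusted p = 0.0137, edgeR). HAT2 (AT5G47370), a homeodomain-leucine zipper factor, measured 55.2, 48.4 and 45.9 CPM in Col-0 in white light, 84.8, 80.4 and 85.1 in Col-0 in shade, 49.2, 46.5 and 51.5 in bbx28-5 in white light, and 137, 179 and 141 in bbx28-5 in shade. The genotypes overlapped in white light, and it was higher in every bbx28-5 library in shade, with an interaction of 0.89 ± 0.159 (adjusted p = 0.00417, edgeR). HFR1, a bHLH protein that blocks PIFs, had an interaction of 0.64 ± 0.135, which was 0.35 with total counts (adjusted p = 0.0851, edgeR).

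Of 7 PIF genes 2 were positive, PIF4 at 0.66 ± 0.126 among them (28.57%), and neither passed with total counts. Only 1 was positive without any 1 of the 9 libraries outside bbx28-5 in shade. Of 22 auxin response genes 4 were positive and 1 negative, with a median of 0.23. From 2 to 5 were positive with 1 library left out, 2 without replicate 3 of Col-0 in shade, replicate 2 of Col-0 in white light or any library of bbx28-5 in white light, and the negative call was lost without 10 of the 12. GH3.3 (AT2G23170), an enzyme that conjugates auxin to amino acids, measured 22.4, 26.8 and 16.9 CPM in Col-0 in white light, 98.4, 102 and 90.8 in Col-0 in shade, 13.9, 11.1 and 9.64 in bbx28-5 in white light, and 155, 133 and 135 in bbx28-5 in shade. It was lower in bbx28-5 in white light and higher in shade in every library, an interaction of 1.46 ± 0.223 (adjusted p = 0.00166, edgeR). GH3.5 had 0.77 ± 0.13. Genes of auxin synthesis and transport had none positive and 2 negative of 12, and none to 2 negative with 1 library left out. Of 14 brassinosteroid genes 3 were positive, BIM1 at 0.61 ± 0.118, CPD at 0.56 ± 0.124 and BR6OX2 at 0.74 ± 0.164, and none of them with total counts. The remaining hormone lists had 1 positive of 16 for gibberellin (6.25%), 1 of 12 for ethylene (8.33%), 2 of 22 for jasmonate (9.09%) and 1 of 7 for salicylate and defence (14.3%), beside 6.49% of all genes, and no negative one. With 1 library left out these counts ran from 0 to 2, 0 to 4, 1 to 5 and 0 to 1, with the highest for gibberellin and ethylene without replicate 2 and for jasmonate without replicate 1 of bbx28-5 in shade. None of 8 cytokinin response genes was called, with a median of -0.26, and 3 were negative without replicate 2 of bbx28-5 in shade.

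Cell wall genes divided. Expansins loosen walls and xyloglucan endotransglucosylases (XTH) cut and rejoin xyloglucan chains. Of 17 tested 3 were positive and 5 negative, with a median of -0.01, and 1 to 4 were positive and 4 or 5 negative with 1 library left out, 1 positive without replicate 3 of Col-0 in shade, replicate 2 of Col-0 in white light or replicate 3 of bbx28-5 in white light. EXPA5 (AT3G29030) measured 28.1, 27.8 and 27.9 CPM in Col-0 in white light, 10.4, 10.2 and 9.55 in Col-0 in shade, 21.3, 26 and 22.8 in bbx28-5 in white light, and 2.83, 2.31 and 2.31 in bbx28-5 in shade. The fall ended at about the same low level in all 3 bbx28-5 libraries in shade, below every Col-0 library. Its effects were -1.47 ± 0.105 in Col-0 and -3.23 ± 0.136 in bbx28-5, an interaction of -1.76 ± 0.177 (adjusted p = 0.000134, edgeR). XTH18 (AT4G30280) went the other way, with 64.8, 65.6 and 57.7 CPM in Col-0 in white light, 124, 104 and 108 in Col-0 in shade, 41.5, 34.2 and 37 in bbx28-5 in white light, and 154, 181 and 177 in bbx28-5 in shade, a larger rise of 1.34 ± 0.155 (adjusted p = 0.000302, edgeR). Its relatives in the family XTH17 and XTH19 were negative at -1.05 ± 0.203 and -1.15 ± 0.251. These are close paralogs, so reads shared among them make the split uncertain. XTH19 rose in Col-0 by 1.04 and had an estimate of -0.10 in bbx28-5 (adjusted p = 0.637, edgeR).

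**Figure D2:**
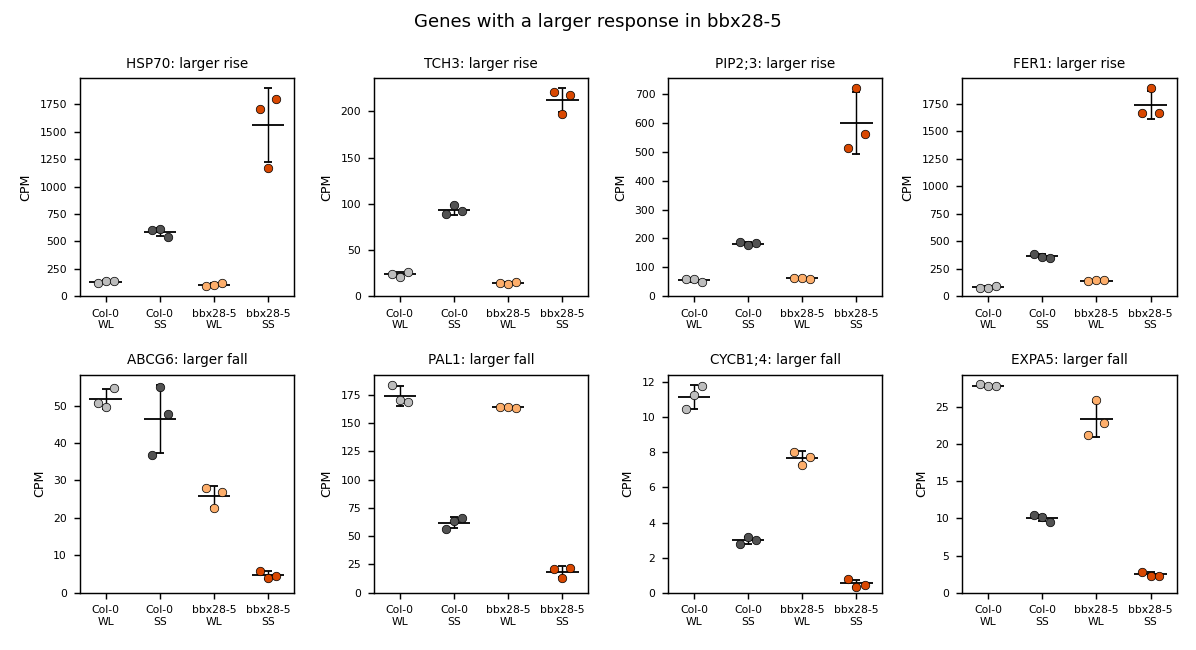
CPM of 8 genes with a larger response in bbx28-5, 1 point per library and 3 per group, with horizontal lines at the mean and bars of 1 SD. HSP70, TCH3, PIP2;3 and FER1 rose further in bbx28-5, and ABCG6, PAL1, CYCB1;4 and EXPA5 reached lower values in shade in bbx28-5 than in Col-0.

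Suberin genes gave the highest share of negative calls among the lists, which were chosen with earlier results of these data known. Suberin is a lipid barrier that, as background, forms around the root endodermis and in seed coats. Of 11 tested members 7 were negative (63.64%, beside 3.78% of all genes) and none positive, with a median interaction of -1.27. ABCG6 (AT5G13580), a transporter of suberin precursors, measured 50.7, 49.8 and 54.8 CPM in Col-0 in white light, 36.8, 55 and 47.7 in Col-0 in shade, 27.9, 22.6 and 26.9 in bbx28-5 in white light, and 5.87, 3.81 and 4.52 in bbx28-5 in shade. In Col-0 the lights overlapped and the shade estimate did not pass (-0.16, adjusted p = 0.36, edgeR), whereas in bbx28-5 every shade library was below every white light library (-2.44). The interaction was -2.29 ± 0.233 (adjusted p = 0.000134, edgeR). ASFT (AT5G41040), a feruloyl transferase of suberin, measured 88.5, 79.2 and 85.2 CPM in Col-0 in white light, 72.2, 91.6 and 83.1 in Col-0 in shade, 64.4, 58.2 and 64 in bbx28-5 in white light, and 19.1, 17.6 and 19.5 in bbx28-5 in shade, and all bbx28-5 shade values lay below all the others. Its interaction was -1.70 ± 0.148. CYP86B1, a fatty acid hydroxylase, had -1.99 ± 0.269 and the fatty acid reductase gene FAR5 -1.29 ± 0.272. From 6 to 8 members were negative with any 1 library left out, and 8 with total counts.

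The summed level of the suberin list was 405.7 to 427.5 CPM in Col-0 in white light, 279.0 to 331.4 in Col-0 in shade, 255.0 to 270.8 in bbx28-5 in white light and 100.8 to 113.0 in bbx28-5 in shade. No member was at 0 in any group. Markers of the Casparian strip and endodermis, which come from the cell layer that carries suberin, summed to 183.5 to 220.6, 265.3 to 277.2, 157.2 to 166.9 and 190.7 to 207.0 CPM in the same order, and 1 of 10 was negative, with a median of -0.11, a call lost without 9 of the 12 libraries. Root hair markers summed to 222.3 to 276.9, 161.8 to 226.9, 170.7 to 196.7 and 142.9 to 186.7 CPM, with none of 12 called, a median of 0.08, and 3 positive without replicate 2 of bbx28-5 in shade. Both lists were lower in bbx28-5 than in Col-0 in their means in each light, and their part in the suberin result was not tested. Cuticular wax genes had 3 negative of 12, among them CER8, a long-chain acyl-CoA synthetase gene, at -0.86 ± 0.196, and 1 to 4 with 1 library left out.

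Phenylpropanoid synthesis feeds lignin, suberin phenolics and flavonoids. Of 13 genes 3, which encode entry steps, were larger falls, 1 was a smaller fall and 9 were not called. With 1 library left out 3 to 6 were negative, 6 without replicate 2 of bbx28-5 in shade, and the smaller fall was lost without 7 of the 12. PAL1 (AT2G37040), phenylalanine ammonia lyase, measured 184, 170.1 and 168 CPM in Col-0 in white light, 56.5, 63.1 and 66.2 in Col-0 in shade, 164, 164 and 163 in bbx28-5 in white light, and 20.6, 12.9 and 22 in bbx28-5 in shade. The bbx28-5 libraries lay just below those of Col-0 in white light, and in shade all bbx28-5 libraries were below those of Col-0. The shade effects were -1.49 ± 0.14 and -3.14 ± 0.154, an interaction of -1.65 ± 0.202 (adjusted p = 0.000457, edgeR). The coenzyme A ligase genes 4CL1 and 4CL2 had -0.99 ± 0.148 and -0.83 ± 0.187. Of 14 flavonoid and anthocyanin genes 2 were positive, both smaller falls, and 1 without any 1 of 8 libraries. CHS (AT5G13930), chalcone synthase, the entry enzyme of flavonoid synthesis, measured 70.5, 61.5 and 94.9 CPM in Col-0 in white light, 25.3, 24.1 and 22.1 in Col-0 in shade, 83.2, 88.5 and 89.5 in bbx28-5 in white light, and 57.3, 57.4 and 62.2 in bbx28-5 in shade. White light values overlapped, and in shade bbx28-5 stayed above every Col-0 library, with an interaction of 1.10 ± 0.19 (adjusted p = 0.00318, edgeR).

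Of 16 tested mitotic genes 7 were larger falls (43.75%, beside 3.43% of all genes) and 9 were not called, with a median of -0.80. CYCB1;4 (AT2G26760), a cyclin that drives entry into mitosis, measured 10.4, 11.3 and 11.8 CPM in Col-0 in white light, 2.8, 3.18 and 2.99 in Col-0 in shade, 8.03, 7.27 and 7.75 in bbx28-5 in white light, and 0.761, 0.346 and 0.462 in bbx28-5 in shade. Every bbx28-5 shade library was below every Col-0 shade library and below all white light libraries. The interaction was -1.95 ± 0.297 (adjusted p = 0.00166, edgeR). Its 0.346 CPM in replicate 2 of bbx28-5 in shade corresponds to 3 counts, so the size of the fall rests on few reads. CYCB2;4 had -1.23 ± 0.275 and CYCA1;1 -1.29 ± 0.292. From 3 to 7 members were negative with 1 library left out, 3 without replicate 3 of Col-0 in shade, replicate 2 of Col-0 in white light or replicate 1 of bbx28-5 in white light, and 10 with total counts.

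Chloroplast regulators had 3 negative of 8 and none positive, with a median of -0.52. SIG5 (AT5G24120), a sigma factor that directs transcription of plastid genes and responds to blue light, measured 69.5, 70.2 and 64 CPM in Col-0 in white light, 43.9, 47.7 and 45.2 in Col-0 in shade, 105, 95.4 and 100.3 in bbx28-5 in white light, and 34, 25.4 and 25 in bbx28-5 in shade. It was higher in bbx28-5 in white light and lower in shade in every library, an interaction of -1.26 ± 0.161 (adjusted p = 0.000588, edgeR). The GATA factor gene CGA1 had -0.96 ± 0.223. Plastid-encoded transcripts, of which 74 of 133 were tested in these libraries made with an mRNA kit, had 1 negative and none positive and a median of 0.03, and 0 to 3 were positive with 1 library left out.

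Calvin cycle genes encode the enzymes of carbon fixation. Of 15 tested 5 were positive (33.33%, beside 6.49% of all genes), 4 as smaller falls and 1 as an opposite rise. None was negative, and the median interaction was 0.48. With 1 library left out 5 to 11 were positive, most without replicate 2 of bbx28-5 in shade. The median shade effect was -1.15 in Col-0 and -0.59 in bbx28-5. FBA1 (AT2G21330), a plastid aldolase, measured 1205, 1079 and 1136 CPM in Col-0 in white light, 376, 414 and 389 in Col-0 in shade, 1144, 1314 and 1239 in bbx28-5 in white light, and 966, 1056 and 993 in bbx28-5 in shade. In white light the genotypes overlapped and in shade every bbx28-5 library was above every Col-0 library. The fall was -1.53 ± 0.0911 in Col-0 and -0.29 ± 0.0891 in bbx28-5, an interaction of 1.24 ± 0.126 (adjusted p = 0.000134, edgeR). RCA, which activates Rubisco, had shade effects of -1.44 and -0.59, an interaction of 0.85 ± 0.136, and the aldolase gene FBA2 and the dehydrogenase gene GAPB had 0.69 ± 0.145 and 0.62 ± 0.126. PSBS, a photosystem II protein that dissipates excess light energy, had 0.86 ± 0.176, and 2 of 8 photoprotection genes were positive, 1 to 4 with 1 library left out.

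Light-harvesting and photosystem genes had 4 positive of 22, with a median of 0.52, and this count changed with the libraries. LHCA4 (AT3G47470), an antenna protein of photosystem I, measured 8445, 8372 and 8399 CPM in Col-0 in white light, 7485, 8203 and 7768 in Col-0 in shade, 8026, 7944 and 8017 in bbx28-5 in white light, and 10550, 17450 and 10980 in bbx28-5 in shade. Replicate 2 of bbx28-5 in shade was the highest of all 12. The interaction was 0.80 ± 0.214 (adjusted p = 0.0302, edgeR), and the summed level of the list was 131900 CPM in that library against 88430 and 93230 in its group mates. Without it 14 members were positive, without replicate 1 or 3 of the same group 10 and 13, without replicate 2 of Col-0 in shade 1, and without any 1 of the other 8 libraries none. LHCA4 itself kept its call without a library of bbx28-5 in shade and lost it without any 1 of the other 9, and with total counts no member was called. Chlorophyll synthesis genes had 4 positive and 1 negative of 16, CRD1, a cyclase of that pathway, being a smaller fall at 0.76 ± 0.162, and 1 to 8 were positive with 1 library left out. Of 8 chlorophyll breakdown genes 2 were positive, HCAR at 0.75 ± 0.152 among them, and neither passed with total counts. From 1 to 4 were positive with 1 library left out, 4 without replicate 2 or 3 of bbx28-5 in shade.

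In nitrate assimilation the rise of a nitrate reductase gene was not called in bbx28-5. NIA1 (AT1G77760), a nitrate reductase, measured 229.8, 265 and 224 CPM in Col-0 in white light, 903, 1137 and 1073 in Col-0 in shade, 407, 408 and 443 in bbx28-5 in white light, and 456, 318 and 324 in bbx28-5 in shade. It was higher in bbx28-5 in white light, and in shade every Col-0 library exceeded every bbx28-5 library. NIA1 rose by 2.11 ± 0.142 in Col-0 and had an estimate of -0.20 ± 0.137 in bbx28-5 that did not pass (adjusted p = 0.215, edgeR), an interaction of -2.31 ± 0.196 (adjusted p = 4.22e-05, edgeR). Its paralog NIA2 (AT1G37130) measured 703, 729.6 and 664 CPM in Col-0 in white light, 2069, 2577 and 2506 in Col-0 in shade, 1063, 1105 and 1087 in bbx28-5 in white light, and 2304, 1960 and 2177 in bbx28-5 in shade. Its genotypes overlapped in shade and bbx28-5 was higher in white light, a smaller rise with an interaction of -0.79 ± 0.143. Nitrite reductase, NIR1, and asparagine synthetase ASN2 fell further, at -0.77 ± 0.179 and -0.89 ± 0.181. In all 4 of 13 nitrogen genes were negative and none positive, and with any 1 library left out 4 or 5 were negative, and 2 were positive without replicate 2 of bbx28-5 in shade.

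Smaller rises held 52 genes. MLO3 (AT3G45290), a membrane protein of the MLO family, measured 4.59, 4.22 and 4.66 CPM in Col-0 in white light, 20.8, 26.9 and 27.4 in Col-0 in shade, 4.7, 4.24 and 5.59 in bbx28-5 in white light, and 7.72, 6.23 and 7.11 in bbx28-5 in shade. White light values overlapped, and in shade the bbx28-5 libraries were far below those of Col-0. Its shade effects were 2.47 ± 0.147 and 0.54 ± 0.166, an interaction of -1.93 ± 0.223 (adjusted p = 0.000303, edgeR). The transporter gene ABCG16 had -1.68 ± 0.298, AT1G01390, annotated as a UDP-glycosyltransferase, -1.15 ± 0.189, and the cytochrome P450 gene CYP71A20 -1.69 ± 0.365. BT1 (AT5G63160), a BTB and TAZ domain protein, measured 11.7, 18.7 and 14.3 CPM in Col-0 in white light, 559.8, 610.2 and 594 in Col-0 in shade, 48.9, 47 and 47.9 in bbx28-5 in white light, and 768, 532 and 871 in bbx28-5 in shade. Its shade values overlapped between genotypes, and in white light bbx28-5 was higher, so its interaction of -1.39 ± 0.242 came with a genotype difference of 1.69 ± 0.181 in white light.

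Smaller falls held 182 genes. GSTU20 (AT1G78370), a glutathione transferase, measured 97.6, 71 and 114 CPM in Col-0 in white light, 2.4, 3.58 and 2.99 in Col-0 in shade, 44.9, 46.6 and 53.5 in bbx28-5 in white light, and 6.53, 6.7 and 5.35 in bbx28-5 in shade. It was lower in bbx28-5 in white light and higher in shade in every library, an interaction of 2.02 ± 0.277 (adjusted p = 0.000864, edgeR). MAM1 (AT5G23010), which elongates the side chain of aliphatic glucosinolates, measured 26.9, 18.7 and 28.2 CPM in Col-0 in white light, 0.334, 0.477 and 0.214 in Col-0 in shade, 2.45, 2.04 and 1.64 in bbx28-5 in white light, and 0.217, 0.577 and 0.554 in bbx28-5 in shade. In shade both genotypes were near the floor and overlapped, and the white light values of bbx28-5 were far below those of Col-0, so the interaction of 3.98 ± 0.671 came with a genotype difference of -3.57 ± 0.214 in white light. The glucosinolate list had 1 positive and 2 negative of 22 (13.64% called, beside 10.3% of all genes). The negative ones were the indole branch genes CYP79B3 and MYB34 at -0.92 ± 0.189 and -0.88 ± 0.175. With 1 library left out 1 to 3 of the list were positive. The sulphur list had 4 positive and 1 negative of 14. SULTR1;2, a root sulphate transporter, had shade effects of -0.96 in Col-0 and -0.02 in bbx28-5, with an interaction of 0.95 ± 0.185. From 1 to 6 sulphur genes were positive with 1 library left out, 1 without replicate 3 of Col-0 in either light or replicate 1 or 3 of bbx28-5 in white light. AT1G78450, annotated as a SOUL heme-binding protein, and AT1G07450, annotated as a Rossmann-fold protein, had 1.84 ± 0.398 and 2.12 ± 0.39.

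Opposite rises numbered 39. SUS1 (AT5G20830), a sucrose synthase, measured 21.2, 17.3 and 23.4 CPM in Col-0 in white light, 12.9, 14.6 and 13.3 in Col-0 in shade, 15.6, 15.1 and 13.2 in bbx28-5 in white light, and 35.1, 24.6 and 36.5 in bbx28-5 in shade. In bbx28-5 all shade values were above all white light values, and in Col-0 all were below. The effects were -0.60 ± 0.153 in Col-0 and 1.13 ± 0.153 in bbx28-5, an interaction of 1.74 ± 0.216 (adjusted p = 0.00052, edgeR). AT1G52870, annotated as a peroxisomal membrane protein of the Mpv17 family, measured 193, 185 and 186 CPM in Col-0 in white light, 90.4, 92 and 93 in Col-0 in shade, 180.2, 169 and 169 in bbx28-5 in white light, and 199.9, 262 and 243 in bbx28-5 in shade. Col-0 fell to about the same value in 3 of 3 libraries, and each bbx28-5 shade library was above each bbx28-5 white light library. Its interaction was 1.48 ± 0.139 (adjusted p = 9.24e-05, edgeR). JAZ10, a repressor of jasmonate signalling, had 1.89 ± 0.346, the transcription factor gene bZIP44 1.34 ± 0.206 and the organellar RNA editing factor gene MORF1 1.16 ± 0.2.

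Opposite falls numbered 17. AT1G49450, annotated as a WD40 repeat protein, measured 4.86, 4.45 and 3.66 CPM in Col-0 in white light, 6, 7.56 and 7.41 in Col-0 in shade, 5.04, 4.32 and 3.19 in bbx28-5 in white light, and 0.979, 0.808 and 0.277 in bbx28-5 in shade. Its genotypes overlapped in white light and did not in shade, where every Col-0 value was higher. Shade changed it by 0.69 ± 0.215 in Col-0 and -2.65 ± 0.335 in bbx28-5, an interaction of -3.33 ± 0.401 (adjusted p = 0.000398, edgeR). Its 0.277 CPM in replicate 3 of bbx28-5 in shade corresponds to 3 counts, so the size of this fall rests on few reads. BGLU22 (AT1G66280), a beta-glucosidase, measured 127, 132 and 100.3 CPM in Col-0 in white light, 149, 147 and 156 in Col-0 in shade, 100.5, 80.9 and 89.5 in bbx28-5 in white light, and 50.4, 56.3 and 57 in bbx28-5 in shade, with an interaction of -1.05 ± 0.165. AT1G64590, annotated as a Rossmann-fold protein, had -1.67 ± 0.181 and the protein kinase gene CIPK1 -0.85 ± 0.126. Genes named per class were picked among calls kept without each library, so that the 9 opposite genes named here kept theirs is no test. These 9 were also called for the interaction with total counts. Among all opposite genes 28 of the 39 rises and 12 of the 17 falls kept the interaction call without each library in turn. With total counts 6 of the 39 opposite rises and 8 of the 17 opposite falls were called in the same class.

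**Figure D3:**
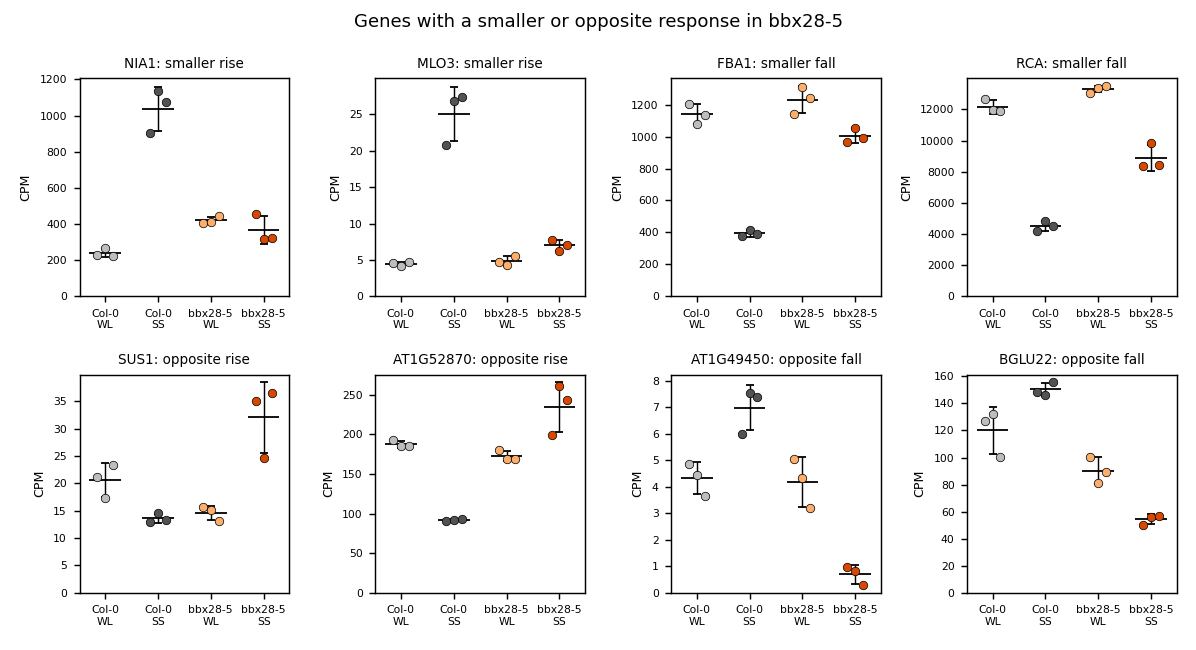
CPM of 8 genes with a smaller or opposite response in bbx28-5, 1 point per library and 3 per group, with horizontal lines at the mean and bars of 1 SD. NIA1 and MLO3 were higher in shade in Col-0 than in bbx28-5, FBA1 and RCA fell far more in Col-0, SUS1 and AT1G52870 fell in Col-0 and rose in bbx28-5, and AT1G49450 and BGLU22 did the reverse.

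At the far end of the larger falls stood AT2G15020, an uncharacterized protein, with 62.9, 59.9 and 54 CPM in Col-0 in white light, 9.4, 18.3 and 11.5 in Col-0 in shade, 66.8, 69 and 73.9 in bbx28-5 in white light, and 1.96, 1.27 and 1.2 in bbx28-5 in shade. All bbx28-5 shade libraries were below all Col-0 shade libraries, an interaction of -3.38 ± 0.329 (adjusted p = 0.000113, edgeR). AT1G05660, annotated as a pectin lyase-like protein, had -2.63 ± 0.373 and AT4G11210, annotated as dirigent-like, -3.10 ± 0.414. Among the larger rises AT2G23110, annotated as a late embryogenesis abundant protein, had 2.27 ± 0.382, AT1G54050, annotated as an HSP20-like chaperone, 2.38 ± 0.406 and the uncharacterized AT1G22470 2.53 ± 0.429.

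Clock genes had 5 positive and 1 negative of 29, with a median of 0.19. CCA1 (AT2G46830), a morning repressor of the clock, measured 114, 124 and 107 CPM in Col-0 in white light, 103, 97.5 and 99.7 in Col-0 in shade, 158, 162 and 164 in bbx28-5 in white light, and 218, 255 and 278 in bbx28-5 in shade. It was higher in bbx28-5 in both lights, with an estimate of -0.20 ± 0.0994 for shade in Col-0 (adjusted p = 0.102, edgeR), a rise of 0.63 ± 0.0991 in bbx28-5 and an interaction of 0.83 ± 0.14 (adjusted p = 0.00284, edgeR). The evening genes TOC1, LUX and PRR5 had 0.61 ± 0.133, 0.87 ± 0.195 and 0.96 ± 0.228, and TOC1 and LUX did not pass with total counts, at 0.33 and 0.57. The call of PRR5 ended without replicate 1 or 3 of bbx28-5 in white light (adjusted p = 0.0582 and 0.0507, edgeR). Without replicate 2 of bbx28-5 in shade 13 clock genes were positive and 4 negative, and 8 were positive without replicate 1 or 3 of that group. Without another library 3 to 5 were positive and none negative, 3 without replicate 3 of bbx28-5 in white light.

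The upstream windows of these 3 evening genes each hold the evening element, AAAATATCT or AGATATTTT, which CCA1 is known to bind, and they are printed with the element in capitals, 5′ to 3′ on the strand of the gene from RefSeq TAIR10.1. The windows are chr5:24674713-24674962 on the plus strand for TOC1, chr3:17182792-17183041 on the plus strand for LUX and chr5:8358547-8358796 on the minus strand for PRR5.
TOC1: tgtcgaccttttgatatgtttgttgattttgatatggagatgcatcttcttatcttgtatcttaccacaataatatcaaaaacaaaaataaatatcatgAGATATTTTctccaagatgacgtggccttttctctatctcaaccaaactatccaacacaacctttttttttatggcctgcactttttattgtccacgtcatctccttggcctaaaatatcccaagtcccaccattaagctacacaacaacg
LUX: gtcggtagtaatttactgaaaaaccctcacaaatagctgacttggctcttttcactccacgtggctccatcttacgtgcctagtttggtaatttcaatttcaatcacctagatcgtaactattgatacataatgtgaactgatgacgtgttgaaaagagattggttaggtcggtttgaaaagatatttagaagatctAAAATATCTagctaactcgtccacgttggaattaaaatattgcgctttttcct
PRR5: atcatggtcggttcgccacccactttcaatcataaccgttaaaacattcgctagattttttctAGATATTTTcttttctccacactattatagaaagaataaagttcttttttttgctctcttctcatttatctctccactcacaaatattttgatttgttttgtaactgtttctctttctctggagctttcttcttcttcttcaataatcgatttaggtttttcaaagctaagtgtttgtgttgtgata
The element was found in 6 of 29 clock promoters (20.7%) and in 2.47% of all promoters of tested genes. By class it was in 3.6% of larger rises, 1.48% of larger falls, 1.92% of smaller rises and 3.85% of smaller falls. The G-box CACGTG, which PIFs and HY5 bind, was in 9.48% of larger rises, 6.94% of larger falls and 7.61% of all promoters. It was in 8 of the 52 smaller rises (15.4%) and in 11% of smaller falls, and a match is a description of the letters alone.

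Within the BBX family 27 of 32 members were tested, with 3 positive and 3 negative (22.22% called, beside 10.3% of all genes). AT2G47890, annotated as a B-box zinc finger protein with a CCT domain, measured 14.1, 14.6 and 14.4 CPM in Col-0 in white light, 13.9, 16 and 15.5 in Col-0 in shade, 10.8, 11.2 and 12.3 in bbx28-5 in white light, and 27, 32.1 and 22.7 in bbx28-5 in shade. Its Col-0 values overlapped between lights, with an estimate of 0.07 (adjusted p = 0.64, edgeR), and each bbx28-5 shade library was above all other libraries, an interaction of 1.18 ± 0.178. BBX29 (AT5G54470), which shares its class with BBX28 by its lone B-box, measured 8.63, 8.6 and 9.98 CPM in Col-0 in white light, 10.6, 13.1 and 10.4 in Col-0 in shade, 11, 11.1 and 10.2 in bbx28-5 in white light, and 6.09, 7.5 and 5.08 in bbx28-5 in shade. Its estimate for shade was 0.32 ± 0.143 in Col-0 (adjusted p = 0.0681, edgeR), and it fell in bbx28-5, so that the bbx28-5 shade libraries lay below all the others, an interaction of -1.12 ± 0.212. BBX27 had 1.00 ± 0.233. With 1 library left out 2 to 5 members were positive and 1 to 4 negative. The list of photoreceptors and light signalling had 1 positive of 22 (4.545%, beside 6.49% of all genes) and a median of -0.21. With 1 library left out 0 to 6 of its genes were positive and 0 to 3 negative, the most without replicate 2 of bbx28-5 in shade.

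Genes of carbon shortage had nearly equal median shade effects in the genotypes. Of 17 carbon starvation genes, with median shade effects of 3.54 in Col-0 and 3.52 in bbx28-5, 3 were positive, among them the beta-glucosidase gene DIN2 at 1.15 ± 0.158 and MCCB of leucine breakdown at 0.73 ± 0.112. Without replicate 2 of bbx28-5 in shade 6 were positive and 2 negative. Starch degradation genes had 1 positive and 1 negative of 11, with 0 to 3 negative when 1 library was left out. Of 11 lipid mobilisation genes 2 were positive, the acyl-CoA oxidase gene ACX2 and the thiolase gene AT2G33150, at 0.54 ± 0.123 and 0.60 ± 0.129, and neither with total counts, while 6 were positive without replicate 2 of bbx28-5 in shade. Of 17 copper and superoxide dismutase genes 1 was positive (5.88%, beside 6.49% of all genes), FSD1, an iron superoxide dismutase, at 0.67 ± 0.132. In this list 3 were positive without replicate 2 or 3 of bbx28-5 in shade.

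None of 14 seed storage and maturation genes was called, with a median of 1.36, and their summed level in bbx28-5 in shade ran from 212.5 to 1067 CPM between replicates. With 1 library left out 0 to 2 of them were positive, 2 without replicate 2 of Col-0 in white light. None of 56 cytosolic ribosomal protein genes was called (median 0.24), but 3, 9 and 10 were positive without replicate 1, 2 or 3 of bbx28-5 in shade. Of 16 mitochondrion-encoded genes 3 were positive (18.75%, beside 6.49% of all genes), with a median of 0.76. None of these passed with total counts, and 0 to 4 were positive with 1 library left out, none without any 1 of 7 libraries. Among 7 reference genes 1 was positive, ACT2 at 0.50 ± 0.126, which was 0.21 with total counts (adjusted p = 0.236, edgeR). ACT2 was called without 6 of the 12 libraries in turn, and 0 to 3 reference genes were positive, 3 without replicate 2 or 3 of bbx28-5 in shade.

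**Figure D4:**
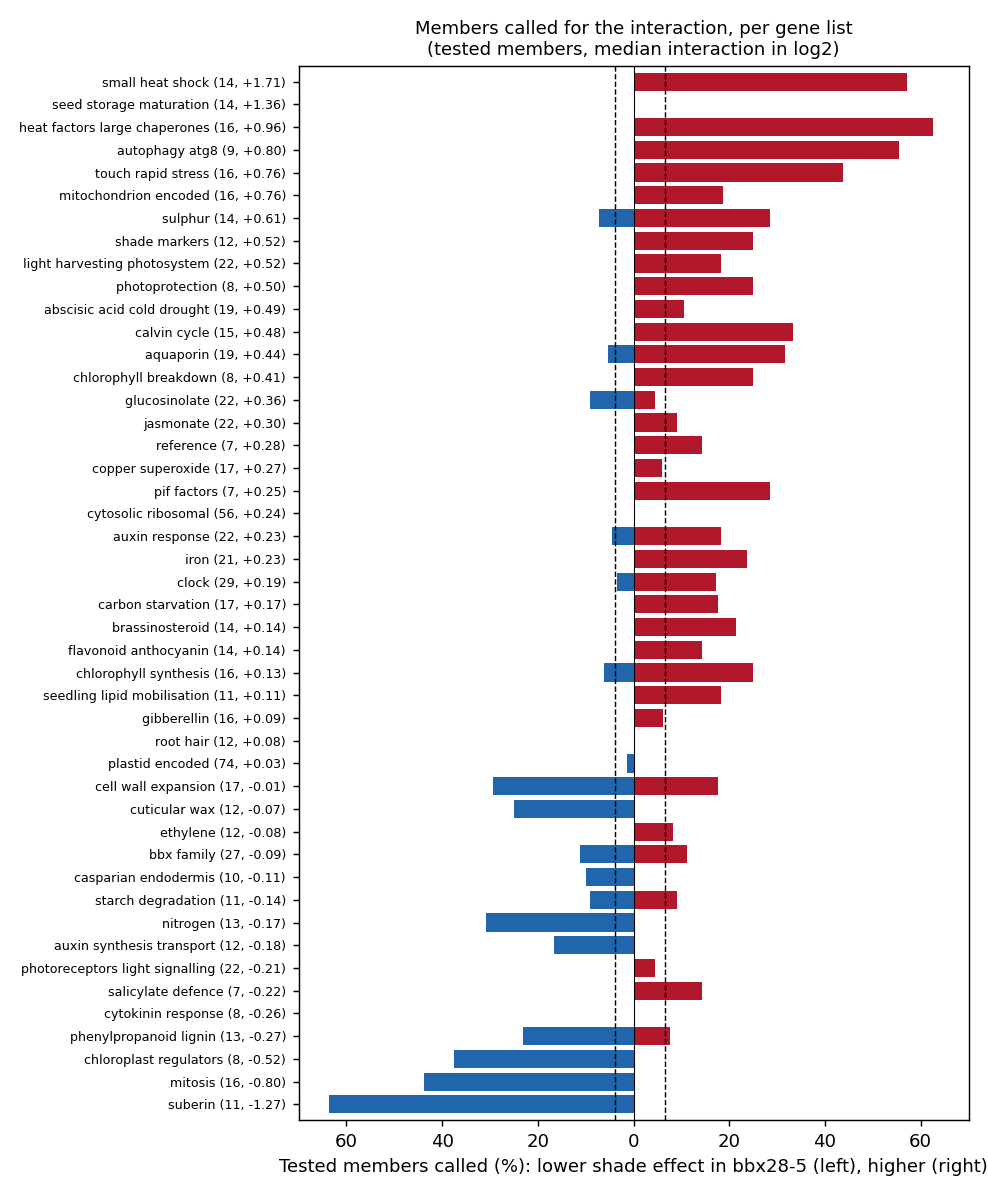
Share of tested members called for the interaction in each of 46 gene lists, in percent, with negative calls to the left and positive calls to the right. Numbers in brackets are the tested members and the median interaction in log2 units, and dashed lines mark the shares over all genes, 3.78% and 6.49%. The small heat shock list and the suberin list lie at the ends of the order by median.

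**Figure D5:**
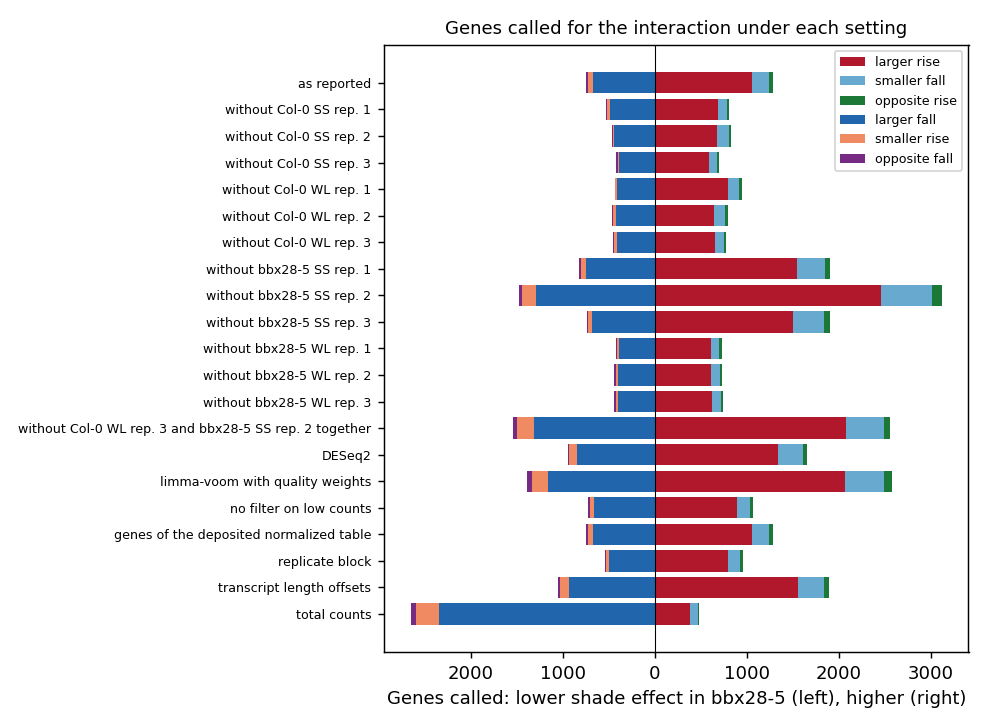
Genes called for the interaction under each setting, with a lower shade effect in bbx28-5 to the left and a higher one to the right, stacked by class. The bar as reported holds 1279 and 746 genes, the bar without replicate 2 of bbx28-5 in shade 3129 and 1489, and scaling by total counts turns the balance to 482 and 2663.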

How the data were processed

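The authors deposited raw counts of reads per gene for 32833 genes in 12 libraries and a table of log2 CPM for 19724 genes. Per the submitters' processing notes, FastQC, HISAT, SAMtools, HTSeq and edgeR were used on the TAIR10 build. These sources state no versions, strand setting or treatment of shared reads. The deposited log2 table equals TMM-scaled log2 CPM with an offset of 0.5, recomputed within 5e-14, and served as an alternative choice of genes.

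All tests started from the counts with edgeR 4.0.16 in R 4.3.3. Genes kept by filterByExpr numbered 19711 and held 99.93% of the counts. A quasi-likelihood model with a mean per group was fitted to all 12 libraries with TMM scaling, and p values were adjusted by Benjamini-Hochberg over all tested genes at 0.05. The SE was derived from the test statistic, and CPM carry TMM scaling. The floors in CPM follow from the 10.61 to 14.3 M counts per library and the TMM scaling, and cover counting error only. The SE, taken from the quasi-likelihood statistic, also takes in the spread between replicates. That spread is estimated per gene over all 4 groups together, so the SE does not show the spread within a single group. Biological replicates are named as such in the study's design text. The fit was tested on simulated data, where part of the smaller changes was missed and false calls made up a larger share of the calls than the threshold.

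Alternatives were DESeq2 1.42.0, limma 3.58.1 with voom quality weights, total counts, no filter, the genes of the normalized table, a replicate block, transcript length offsets and leaving out each library. Symbols, products and windows of 250 bases came from TAIR10.1, where 32548 identifiers were found. Members, gene lists and tests were chosen with earlier results of these data known. Named genes were BBX28, up to 6 per class with the largest interaction among calls kept without each library (mean log2 CPM 1 or more), plus up to 4 per list with the smallest adjusted p. No set test or correction over a list was used.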

Additional observations from a re-analysis of the deposited data

Results flagged for a closer look

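The shade effect differed between Col-0 and bbx28-5, by the interaction term of the edgeR model, in 1279 genes with a higher effect in bbx28-5 and in 746 with a lower one. In 56 genes both shade effects were called and had opposite signs. Replicate 2 of bbx28-5 in shade and the scaling moved these counts, as given with the settings.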

How the results depend on the processing

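Positive calls, negative calls, and larger, smaller and opposite responses numbered 1279, 746, 1735, 234 and 56 as reported. In that order they were 2579, 1393, 3232, 600 and 135 with limma-voom and 2558, 1548, 3395, 594 and 108 without replicate 3 of Col-0 in white light and replicate 2 of bbx28-5 in shade together. Total counts gave 482 positive and 2663 negative calls and 2730 larger responses. Smaller responses numbered 352 with DESeq2 and 384 with transcript length offsets. Leaving out 1 library at a time gave 702 to 3129 positive, 419 to 1489 negative, 969 to 3745 larger, 114 to 718 smaller and 28 to 141 opposite responses, with the most in each case without replicate 2 of bbx28-5 in shade. Other alternatives stayed within 1.5 times. The cause was not tested. Of the 100 genes named with a call, 86 kept it in the same direction under every alternative, and 12 lost it with total counts. These genes were picked for calls kept without each library or for a small adjusted p, so the share partly restates the choice. Of all 2025 calls 911 (44.99%) were kept without each library in turn, and 1228 were shared with total counts.

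Replicate numbers did not pair the libraries, with residual correlations of -0.123 to 0.0975 over 18 pairs of libraries of the same number, and a replicate block gave 961 positive and 545 negative calls. BBX28 was not called under any setting, and its interaction turned negative with limma-voom (-0.0484), total counts (-0.217), length offsets (-0.0222), and without both libraries (-0.0314). With 1 library left out it ran from -0.0599 to 0.221.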
